A study of Mus musculus with 20 samples.

Results

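The genes described here are 9 that are grouped as targets of the transcription factor p53 and act in repair, metabolism, secretion or mitosis. The 9 are Xpc, Ddb2, Polk, Rrm2b, Tigar, Phlda3, Gdf15, Pidd1 and Psrc1. Whether p53 acts on each of them in mouse liver was not tested. They were taken by gene symbol, and all 9 were found among the 50559 genes of the count tables and among the 14333 genes that were tested. Gene expression was measured by bulk RNA sequencing in 20 mouse livers or liver tumors, 5 in each of 4 groups. In the FGF19+MYC and Aldafermin+MYC groups, plasmids carrying MYC and either the human hormone FGF19 or its engineered analog Aldafermin were delivered to the liver by hydrodynamic gene transfer, a rapid tail vein injection that transfects some of the hepatocytes. In the sgTrp53+MYC group, MYC was delivered with a CRISPR plasmid whose guide RNA targets Trp53, the gene of mouse p53, and the labels give no FGF for it. The Liver group is labelled as healthy and not treated, whereas the study describes its control livers as given an RFP plasmid by the same gene transfer, and which of these holds was not settled here. All mice were C57Bl6J with a wild-type genotype in the labels, and the study's methods give female animals. All 3 tumor groups thus carry MYC, and no group received MYC alone, FGF19 alone or the Trp53 guide alone. Between tumors, the Trp53 guide therefore goes with the absence of FGF19 and Aldafermin, and their effects cannot be told apart. The series gives 5 mice per condition, the gene transfer is mosaic, and each tumor sample is bulk tissue with its other cell types included.

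As background, p53 is a tetramer that is stabilized by DNA damage, oncogene activity and other stresses, and it binds a response element made of 2 copies of a short motif to raise the transcription of nearby genes. Its best known targets stop the cell cycle or trigger apoptosis. The genes described here are assigned to the other arms of the response. Xpc and Ddb2 encode sensors of bulky DNA lesions in nucleotide excision repair, Polk encodes a polymerase that copies across lesions, and Rrm2b encodes the p53-inducible small subunit of ribonucleotide reductase, which makes deoxynucleotides. Tigar encodes a phosphatase that lowers fructose 2,6-bisphosphate and directs glucose towards the pentose phosphate pathway, and Phlda3 encodes a lipid-binding protein that competes with the kinase AKT at the membrane. Gdf15 encodes a secreted stress hormone of the TGF-beta family, Pidd1 encodes the death domain scaffold of the PIDDosome, which activates caspase 2, and Psrc1 (also called DDA3) encodes a spindle protein that works with the microtubule depolymerase Kif2a.

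Sequences resembling the p53 response element were searched, because these genes are grouped by a shared factor. The search covered 2000 bases on either side of the start of each gene's canonical transcript, on both strands of the GRCm39 assembly. That start can lie within the gene's annotated span. The motif was the p53 consensus of 20 bases without a spacer, with the C and the G of both cores fixed and at most 2 mismatches. Of the 9 genes, 3 held at least 1 such sequence, and 848 of 21770 protein-coding genes did (3.9%). The 4 sequences found in Gdf15, Pidd1 and Psrc1 are shown 5′ to 3′ with the 4-base core of each motif copy in capitals.
Gdf15, chr8:71084616-71084635, minus strand, 476 bases past the canonical start site in the non-coding part of exon 1, 1 mismatch: tgaCTTGcctgaaCTTGcct
Pidd1, chr7:141023239-141023258, minus strand, 680 bases past the canonical start site in the non-coding part of exon 2, 2 mismatches: agcCTTGcctaagCAGGctt
Pidd1, chr7:141023216-141023235, minus strand, 703 bases past the canonical start site in the non-coding part of exon 2, 2 mismatches: tggCAAGctgggaCATGtct
Psrc1, chr3:108291972-108291991, plus strand, 852 bases past the canonical start site in intron 3, 1 mismatch: gggCATGttgaggCATGccc
Each is a match of letters and not a measured binding site. The other 6 genes had no match in this window, which says only that these letters are not there. The p53 targets Cdkn1a and Mdm2, searched in the same way, also had 0 matches, so the search does not find every p53 target.

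Read depth differed between groups. Reads assigned to genes ranged from 18004977 to 28417261 in the FGF19+MYC libraries, from 21604250 to 36119799 in the Aldafermin+MYC libraries, from 54042455 to 66354724 in the sgTrp53+MYC libraries and from 21376918 to 44427184 in the livers. The 5 sgTrp53+MYC libraries stand in a table of their own. Reads that overlapped more than 1 gene made up 11.1 to 14.6% of their reads against 3.03 to 6.3% in the other 15 libraries. Reads that were not aligned made up 5.34 to 6.82% against 15.3 to 34%. Table and group therefore cannot be told apart. Trp53 itself, the targeted gene, had a mean of 46.8 ± 22.6 CPM (CPM, reads of the gene relative to all reads on genes, scaled by TMM factors; SD, n = 5) in sgTrp53+MYC tumors, 139.5 ± 17.9 CPM in FGF19+MYC tumors, 138 ± 32.5 CPM in Aldafermin+MYC tumors and 32.8 ± 2.98 CPM in livers. The sgTrp53+MYC tumors did not overlap either other tumor group. The 8 hepatocyte markers summed to 181636 to 228233 CPM in livers, to 9441 to 28908 in FGF19+MYC tumors, to 8609 to 22318 in Aldafermin+MYC tumors and to 3832 to 11052 in sgTrp53+MYC tumors. Of 6 macrophage markers, 3 were higher in FGF19+MYC and 4 in Aldafermin+MYC than in sgTrp53+MYC tumors, and their sums ranged from 265 to 481 CPM, 151 to 457 CPM and 83.7 to 165 CPM, with 347 to 541 CPM in livers. None of these markers was at 0 in a group. Their part in the results below was not tested, and in bulk tissue fewer cells of a type and less RNA per cell cannot be told apart.

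Between tumors with and without the Trp53 guide, the 9 genes split by direction rather than moving as one group. In FGF19+MYC against sgTrp53+MYC tumors, 4 genes were higher (Phlda3, Gdf15, Psrc1 and Pidd1), 2 were lower (Rrm2b and Ddb2) and 3 did not pass, beside 15.8% of all tested genes called in either direction (7.97% higher and 7.78% lower). In Aldafermin+MYC against sgTrp53+MYC tumors, 4 were higher (Phlda3, Gdf15, Psrc1 and Pidd1), 3 were lower (Rrm2b, Ddb2 and Xpc) and 2 did not pass, against 17.7% of all genes (10.2% higher and 7.53% lower). These 2 comparisons share the 5 sgTrp53+MYC libraries. Their median log2 fold change came to 0.53 in the first and -0.08 in the second, beside medians of -0.03 and -0.01 over all tested genes. Groups did not overlap for 5 of the 9 genes in the first comparison and for 4 in the second, beside 10.9% and 9.75% of all genes. Here and below a call means an adjusted p under 0.05 by the quasi-likelihood test of edgeR, over all tested genes, and fold changes give the first group minus the second. The shares of all genes above are also the background for the counts of gene lists against sgTrp53+MYC below.

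**Figure D1:**
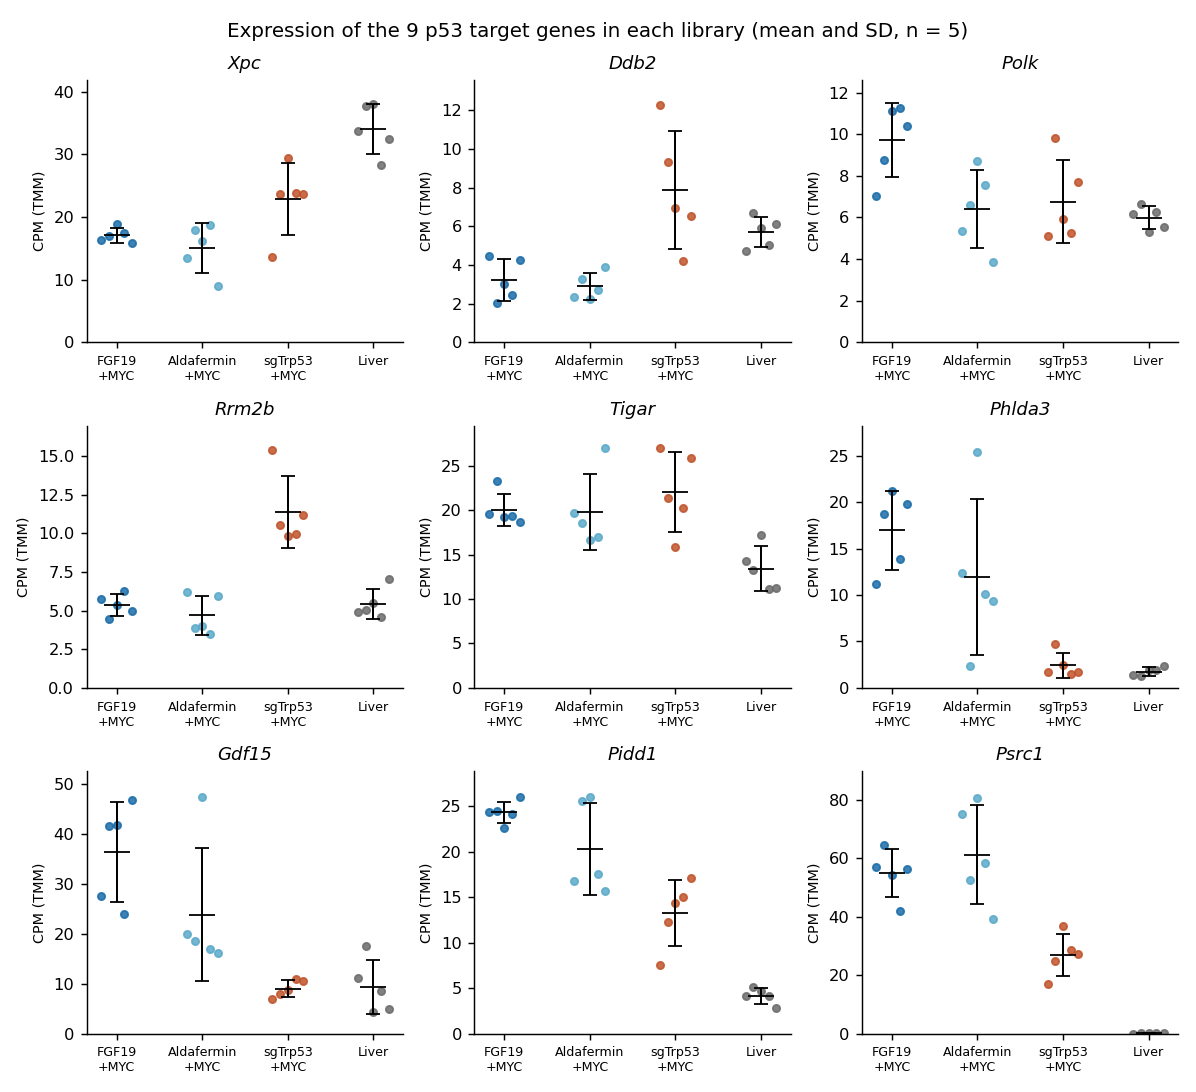
Level of each of the 9 genes in CPM (y axis from 0) in every library (points), by group (x axis), with the mean and SD of 5 libraries. Phlda3 and Gdf15 lie highest in the tumors with FGF19 or Aldafermin, Rrm2b lies highest in the sgTrp53+MYC tumors, and Psrc1 is near 0 in all 5 livers.

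Among the repair genes, Xpc (chr6:91466287-91492898, minus strand) was lower in all tumor groups than in liver. Its CPM in replicates 1 to 5 was 33.8, 37.8, 37.99, 28.3 and 32.5 in livers and 13.6, 23.7, 29.4, 23.9 and 23.7 in sgTrp53+MYC tumors. It was 16.3, 16.9, 18.9, 17.4 and 15.9 in FGF19+MYC tumors and 13.5, 17.98, 16.1, 18.7 and 9.01 in Aldafermin+MYC tumors. The livers lay above every FGF19+MYC and Aldafermin+MYC tumor, and 1 sgTrp53+MYC tumor, replicate 3, reached the liver range. Against liver, the log2 fold change was -0.997 ± 0.19 (SE, adjusted p = 0.000142) in FGF19+MYC and -1.18 ± 0.19 (SE, adjusted p = 2.31e-05) in Aldafermin+MYC tumors. It was -0.58 ± 0.19 (SE, adjusted p = 0.0114) in sgTrp53+MYC tumors. With library totals in place of TMM factors all of these calls were lost (-0.15, adjusted p = 0.555, -0.32, adjusted p = 0.214, and 0.33, adjusted p = 0.202). Without a filter on low counts the last was lost as well (-0.29, adjusted p = 0.235). Between tumors, Xpc was lower in Aldafermin+MYC than in sgTrp53+MYC (-0.602 ± 0.19 SE, adjusted p = 0.0354), and in FGF19+MYC against sgTrp53+MYC it did not pass (-0.42 ± 0.19 SE, adjusted p = 0.142). The first of these calls is marginal: over 20 alternatives, 10 of which leave out 1 library each, it was kept in 12, with adjusted p from 0.00287 to 0.125. It was lost without any 1 of replicates 2 to 5 of sgTrp53+MYC or of replicates 1 and 3 of Aldafermin+MYC.

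Ddb2 (chr2:91040809-91078878, minus strand), whose product recognizes ultraviolet lesions in chromatin together with Ddb1, was lowest in the FGF19+MYC and Aldafermin+MYC tumors. Its CPM in replicates 1 to 5 was 4.47, 2.003, 3.01, 2.47 and 4.25 in FGF19+MYC and 2.36, 3.27, 2.24, 2.69 and 3.87 in Aldafermin+MYC tumors. It was 12.3, 9.33, 6.93, 4.22 and 6.55 in sgTrp53+MYC tumors and 4.73, 6.67, 5.92, 5.05 and 6.14 in livers. All 5 Aldafermin+MYC tumors lay below every sgTrp53+MYC tumor and every liver, whereas FGF19+MYC overlapped sgTrp53+MYC through replicate 4 of the latter. The log2 fold change against sgTrp53+MYC was -1.28 ± 0.28 (SE, adjusted p = 0.00486) for FGF19+MYC and -1.45 ± 0.28 (SE, adjusted p = 0.00197) for Aldafermin+MYC. These were 2.43-fold and 2.72-fold lower levels. Against liver, both groups were also lower (-0.82 ± 0.28 SE, adjusted p = 0.0144, and -0.98, adjusted p = 0.00437). With library totals neither was called (0.0033, adjusted p = 0.991, and -0.15, adjusted p = 0.599), nor was FGF19+MYC without a filter on low counts (-0.65, adjusted p = 0.0931). The difference of sgTrp53+MYC from liver did not pass (0.46 ± 0.28 SE, adjusted p = 0.145). It was called in 4 of 19 alternatives, library totals among them (1.32, adjusted p = 0.000101). On the exons of Ddb2, 46.3% of bases overlap exons annotated on the opposite strand, mostly of Acp2. The strand setting of the counting is not given in the sources used here. Over the 611 tested genes with over 40% of such overlap, the median log2 fold change was 0.03 in FGF19+MYC and 0.08 in Aldafermin+MYC tumors against sgTrp53+MYC.

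Polk (chr13:96617196-96679087, minus strand), the gene of DNA polymerase kappa, was called in 1 of the 6 comparisons with TMM factors. In FGF19+MYC tumors its CPM was 7.03, 8.78, 11.1, 11.3 and 10.4 and in livers 6.17, 6.64, 5.301, 6.28 and 5.54, with no overlap, and the log2 fold change was 0.701 ± 0.23 (SE, adjusted p = 0.011). The Aldafermin+MYC tumors had 5.34, 6.57, 8.72, 7.54 and 3.84 CPM and the sgTrp53+MYC tumors 5.12, 9.795, 5.905, 5.27 and 7.705 CPM, and both spanned the liver range. With library totals both were called higher than liver (0.97, adjusted p = 0.00229, and 1.07, adjusted p = 0.00101). Against sgTrp53+MYC, the log2 fold change was 0.53 ± 0.23 (SE, adjusted p = 0.123) for FGF19+MYC and -0.078 ± 0.23 (SE, adjusted p = 0.848) for Aldafermin+MYC. Of all 9 genes, Polk had the smallest unadjusted p between Aldafermin+MYC and FGF19+MYC, and this difference did not pass (-0.603 ± 0.23 SE, adjusted p = 0.502, 95% interval -1.09 to -0.12).

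Some other genes of both repair pathways were called between tumors, where 7.97% of all genes were higher and 7.78% lower in FGF19+MYC and 10.2% and 7.53% in Aldafermin+MYC. Of 28 other nucleotide excision repair genes, 1 was higher and 4 were lower in FGF19+MYC than in sgTrp53+MYC, and 2 were higher and 2 lower in Aldafermin+MYC, with list medians of 0.022 and 0.0024. Uvssa, a factor of transcription-coupled repair, had a log2 fold change of -1.04 ± 0.21 (SE, adjusted p = 0.00312) in FGF19+MYC. Rpa1, a subunit of the single-strand binding protein RPA, had -0.47 ± 0.11 (SE, adjusted p = 0.00863) and Gtf2h4, a subunit of the repair and transcription factor TFIIH, had 0.53 ± 0.101 (SE, adjusted p = 0.00172). Against liver, 21 of the 28 were higher in each tumor group, while 4, 4 and 2 were lower in FGF19+MYC, Aldafermin+MYC and sgTrp53+MYC tumors, beside 36.9%, 38.4% and 36.9% of all genes called higher. Of 15 other genes of translesion synthesis, none was higher and 3 were lower in each comparison with sgTrp53+MYC. Poli is a polymerase of the same family as Polk (-0.65 and -0.65 in FGF19+MYC and Aldafermin+MYC, adjusted p = 0.0273 and 0.0239). The others were the primase and polymerase Primpol (-0.82 and -0.703, adjusted p = 0.00189 and 0.00474), and Usp1, which removes ubiquitin from PCNA (-0.61 and -0.52, adjusted p = 0.017 and 0.0341).

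Rrm2b (chr15:37924196-37961562, minus strand) was highest in the tumors that carried the Trp53 guide. Its CPM in replicates 1 to 5 was 15.4, 10.5, 9.79, 9.93 and 11.2 in sgTrp53+MYC tumors. FGF19+MYC tumors had 5.75, 4.44, 5.39, 6.28 and 4.99. It was 6.19, 3.89, 4.002, 3.4996 and 5.95 in Aldafermin+MYC tumors and 4.88, 5.06, 5.48, 4.58 and 7.05 in livers. Every sgTrp53+MYC tumor lay above every sample of the other groups, which overlapped one another. The log2 fold change was -1.08 ± 0.204 (SE, adjusted p = 0.0016) for FGF19+MYC and -1.27 ± 0.204 (SE, adjusted p = 0.000472) for Aldafermin+MYC against sgTrp53+MYC. These were 2.12-fold and 2.41-fold lower levels. In sgTrp53+MYC against liver it was 1.07 ± 0.204 (SE, adjusted p = 0.000119). Against liver, FGF19+MYC (-0.012 ± 0.204 SE, adjusted p = 0.959, 95% interval -0.44 to 0.42) and Aldafermin+MYC (-0.201 ± 0.203 SE, adjusted p = 0.387, 95% interval -0.63 to 0.23) did not pass. With library totals in place of TMM factors both were called higher (0.83, adjusted p = 0.000529, and 0.63, adjusted p = 0.00456). Replicate 1 of sgTrp53+MYC was the highest library, and also the one with the lowest Trp53 of its group (18.7 CPM). The same library was also the lowest of its group for Xpc, Polk, Gdf15, Pidd1 and Psrc1 and the highest for Ddb2 and Tigar. Without it, as without any other library, both calls against sgTrp53+MYC were kept.

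Rrm2b shares its partner, the large subunit Rrm1, with Rrm2, the small subunit that dividing cells use. Rrm2 had a mean of 206 ± 20.2 CPM in FGF19+MYC, 242 ± 47.5 CPM in Aldafermin+MYC and 185 ± 21.7 CPM in sgTrp53+MYC tumors and 13.96 ± 3.21 CPM in livers. The log2 fold change of each tumor group against liver was between 3.73 and 4.12. Rrm1 was between 3.11 and 3.26 log2 units higher than in liver. Neither passed between tumor groups, where Rrm2 had 0.15 ± 0.16 (SE, adjusted p = 0.555) for FGF19+MYC against sgTrp53+MYC and 0.39 ± 0.16 (SE, adjusted p = 0.094) for Aldafermin+MYC. Of the 13 genes of deoxynucleotide supply on the fixed list, these included, none was higher and 2 and 1 were lower against sgTrp53+MYC. Dguok, a mitochondrial deoxynucleoside kinase, was lower in FGF19+MYC (-0.59, adjusted p = 0.0326).

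The balance of the 2 small subunits was then read within each library as log2 CPM of Rrm2b minus log2 CPM of Rrm2, of which only differences between groups are used. In replicates 1 to 5 it was -5.05, -5.54, -5.41, -5.09 and -5.16 in FGF19+MYC tumors and -5.56, -5.71, -5.83, -5.75 and -5.59 in Aldafermin+MYC tumors. It was -3.51, -4.05, -4.05, -4.26 and -4.29 in sgTrp53+MYC tumors and -1.55, -1.13, -1.31, -2.05 and -0.69 in livers. No pair of groups overlapped, but the nearest values of FGF19+MYC and Aldafermin+MYC, -5.54 and -5.56, lay close together. Taken singly, 1.46% of all tested genes did not overlap between these 2 groups. The share of other gene ratios that do so was not computed. The mean was -5.25 ± 0.21, -5.69 ± 0.11, -4.03 ± 0.32 and -1.35 ± 0.50 (SD, n = 5). Each of the 6 differences had a two-sided exact permutation p = 0.00794, the smallest that 252 splits of 10 libraries allow, and an adjusted p = 0.00794 over the 6. Aldafermin+MYC lay 0.44 below FGF19+MYC, while neither Rrm2b nor Rrm2 alone passed in that comparison. With offsets for exon GC content and length, an alternative chosen after seeing the data, this difference was -0.34 with an exact permutation adjusted p = 0.0556, within a range of 0.00794 to 0.0625 over 14 alternatives, and the other 5 differences kept an adjusted p = 0.00952. On the exons of Rrm2, 43.3% of bases overlap an annotated transcript of the opposite strand, Gm59512.

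**Figure D2:**
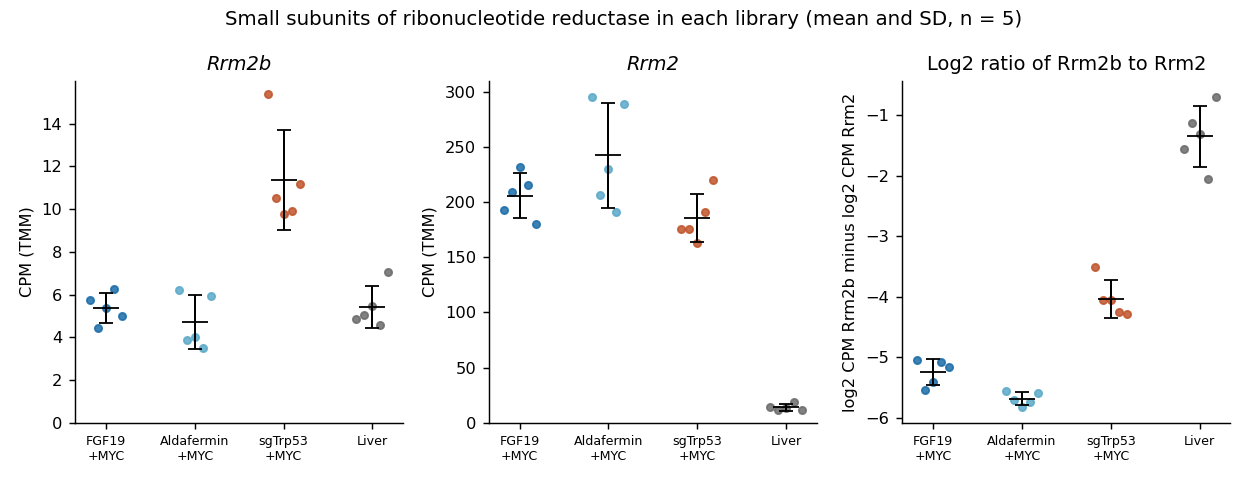
Rrm2b and Rrm2 in CPM (left and middle, y axis from 0) and the log2 ratio of Rrm2b to Rrm2 (right) in every library by group, with the mean and SD of 5 libraries. Rrm2 lies low only in livers and Rrm2b lies high in sgTrp53+MYC tumors. The ratio runs from a mean of -1.35 in livers to -5.69 in Aldafermin+MYC tumors. The FGF19+MYC and Aldafermin+MYC points lie close, at -5.54 and -5.56 where nearest.

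Tigar (chr6:127062079-127086545, minus strand) was higher in all 3 tumor groups than in liver and did not pass between tumors. Its CPM was 19.6, 23.2, 19.3, 19.4 and 18.7 in FGF19+MYC and 19.6, 18.6, 16.6, 16.9 and 27.02 in Aldafermin+MYC tumors. It was 27.03, 21.3, 15.8, 20.2 and 25.9 in sgTrp53+MYC tumors and 14.3, 13.3, 17.2, 11.1 and 11.2 in livers. Only the FGF19+MYC tumors lay wholly above the livers. Log2 fold changes against liver were 0.58 ± 0.17 (SE, adjusted p = 0.00562), 0.56 ± 0.17 (SE, adjusted p = 0.00698) and 0.72 ± 0.17 (SE, adjusted p = 0.00101) in the same order. Between tumors the 95% intervals of the log2 fold change were -0.497 to 0.22 for FGF19+MYC and -0.52 to 0.1999 for Aldafermin+MYC against sgTrp53+MYC, and -0.38 to 0.34 for Aldafermin+MYC against FGF19+MYC. Of 17 genes of fructose 2,6-bisphosphate and the pentose phosphate pathway, 2 were higher and 3 lower in each comparison with sgTrp53+MYC. The hepatic phosphofructokinase 2 gene Pfkfb1 was higher (0.89 and 0.77, adjusted p = 0.00205 and 0.0054). So was H6pd, the first enzyme of the pathway in the endoplasmic reticulum, in FGF19+MYC (0.73, adjusted p = 0.0169). The muscle phosphofructokinase Pfkm was lower (-1.36 and -1.52, adjusted p = 0.005 and 0.0021).

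Phlda3 (chr1:135693809-135697686, plus strand) had the largest difference of the 9 genes between tumors with and without the guide. Its CPM in replicates 1 to 5 was 11.2, 18.8, 21.2, 13.9 and 19.8 in FGF19+MYC tumors and 12.4, 2.36, 25.4, 10.1 and 9.32 in Aldafermin+MYC tumors. The sgTrp53+MYC tumors had 1.75, 4.77, 2.503, 1.54 and 1.73 and the livers 1.36, 1.28, 1.899, 1.98 and 2.31. Every FGF19+MYC tumor lay above every sgTrp53+MYC tumor and liver, whereas replicate 2 of Aldafermin+MYC, at 2.36, lay within the sgTrp53+MYC range. The log2 fold change against sgTrp53+MYC was 2.78 ± 0.45 (SE, adjusted p = 0.00053) for FGF19+MYC and 2.28 ± 0.45 (SE, adjusted p = 0.00197) for Aldafermin+MYC. These were 6.88-fold and 4.84-fold higher levels. Leaving out 1 library at a time gave 1.798 to 2.66 for the latter with the call kept. Against liver it was 3.26 ± 0.47 (SE, adjusted p = 5.35e-06) for FGF19+MYC and 2.75 ± 0.46 (SE, adjusted p = 3.13e-05) for Aldafermin+MYC. In sgTrp53+MYC against liver it did not pass (0.47 ± 0.44 SE, adjusted p = 0.349), except with library totals (1.36, adjusted p = 0.0127). Of 14 other regulators of AKT by lipid binding, 1 was higher and 2 were lower in FGF19+MYC, and 2 were higher and 1 was lower in Aldafermin+MYC, against sgTrp53+MYC. Phlda2, an imprinted relative of Phlda3, was higher (1.43 and 1.47, adjusted p = 0.0202 and 0.0159). Phlpp1, a phosphatase of AKT, was lower (-1.66 and -1.69, adjusted p = 0.00142 and 0.00122). Pik3r1, the regulatory subunit of phosphoinositide 3-kinase, was lower in FGF19+MYC (-0.65, adjusted p = 0.0429).

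Gdf15 (chr8:71082038-71091537, minus strand), the secreted member, was higher in both FGF tumor groups than in sgTrp53+MYC tumors and livers. In FGF19+MYC tumors its CPM was 27.6, 41.6, 41.8, 23.98 and 46.9, and in Aldafermin+MYC tumors 20.01, 18.7, 47.4, 16.96 and 16.2. The sgTrp53+MYC tumors had 6.98, 7.89, 8.79, 10.9 and 10.5 and the livers 11.3, 17.6, 4.37, 8.47 and 4.901. All 10 FGF19+MYC and Aldafermin+MYC tumors lay above all 5 sgTrp53+MYC tumors, and only liver replicate 2 entered the Aldafermin+MYC range. The log2 fold change against sgTrp53+MYC was 2.01 ± 0.36 (SE, adjusted p = 0.00115) for FGF19+MYC and 1.41 ± 0.36 (SE, adjusted p = 0.0107) for Aldafermin+MYC. These were 4.04-fold and 2.65-fold higher levels. Against liver it was 1.96 ± 0.37 (SE, adjusted p = 9.19e-05) and 1.36 ± 0.36 (SE, adjusted p = 0.0024). In sgTrp53+MYC against liver it was -0.049 ± 0.35 (SE, adjusted p = 0.909), 95% interval -0.799 to 0.701. With library totals that difference was called (0.86, adjusted p = 0.0417). Gdf15 also responds to the integrated stress response, so that list was fixed beside it. Of its 13 genes, 4 were higher and none lower in FGF19+MYC, and 3 were higher and none lower in Aldafermin+MYC, against sgTrp53+MYC, with list medians of 0.53 and 0.40. They include the pseudokinase gene Trib3 (1.85 and 1.599, adjusted p = 0.00399 and 0.00883) and the phosphatase subunit Ppp1r15a (1.099 and 0.79, adjusted p = 0.00425 and 0.0273). The transcription factor Atf3 was higher in FGF19+MYC (1.78, adjusted p = 0.00505). Against liver the same list had 3 higher and 3 lower in FGF19+MYC and 4 higher and 4 lower in Aldafermin+MYC tumors, and 3 higher and 7 lower in sgTrp53+MYC tumors, with medians of -0.42, -0.33 and -1.28.

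Pidd1 (chr7:141018026-141023938, minus strand) was higher in all tumors than in liver and higher in FGF19+MYC and Aldafermin+MYC than in sgTrp53+MYC tumors. Its CPM was 4.16, 5.17, 4.68, 4.17 and 2.79 in livers and 7.56, 12.2, 14.3, 14.99 and 17.1 in sgTrp53+MYC tumors. It was 16.8, 25.7, 26.1, 17.6 and 15.7 in Aldafermin+MYC tumors and 24.4, 24.5, 22.7, 24.1 and 26.01 in FGF19+MYC tumors. Every tumor lay above every liver, every FGF19+MYC tumor lay above every sgTrp53+MYC tumor, and Aldafermin+MYC overlapped sgTrp53+MYC. Against liver the log2 fold change was 1.66 ± 0.22 (SE, adjusted p = 1.28e-06) for sgTrp53+MYC and 2.28 ± 0.22 (SE, adjusted p = 2.35e-08) for Aldafermin+MYC. It was 2.54 ± 0.22 (SE, adjusted p = 5.69e-09) for FGF19+MYC. Against sgTrp53+MYC it was 0.88 ± 0.21 (SE, adjusted p = 0.00761) for FGF19+MYC and 0.62 ± 0.21 (SE, adjusted p = 0.0435) for Aldafermin+MYC. The last of these calls held in 10 of 20 alternatives, with adjusted p from 0.0255 to 0.144. It was lost without replicate 2 or 3 of Aldafermin+MYC and without replicate 1, 2 or 3 of sgTrp53+MYC. Of the 4 other genes of the PIDDosome and its NF-kB branch, none passed in either comparison with sgTrp53+MYC (list medians -0.21 and -0.30). Against liver, Casp2, the caspase that the complex activates, was higher and Cradd, Ripk1 and Ikbkg were lower in each tumor group.

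Psrc1 (chr3:108288765-108295547, plus strand) was close to absent from liver and abundant in all tumors. The 5 livers held 0, 5, 2, 4 and 3 reads of it, 14 in all, and the 3 tumor groups held 7033 reads in FGF19+MYC, 11153 in Aldafermin+MYC and 9879 in sgTrp53+MYC. From these sums the rate was 400-fold that of liver in FGF19+MYC (exact 95% interval 238 to 732), 457-fold in Aldafermin+MYC (272 to 836) and 204-fold in sgTrp53+MYC (122 to 374), where the intervals cover counting error only. Between tumors, the CPM was 57.04, 64.6, 54.3, 41.96 and 56.1 in FGF19+MYC and 75.2, 52.5, 80.6, 58.5 and 39.3 in Aldafermin+MYC, and 17.1, 25.01, 36.7, 28.7 and 27.1 in sgTrp53+MYC. Neither of the first 2 groups overlapped the third. The log2 fold change against sgTrp53+MYC was 1.03 ± 0.24 (SE, adjusted p = 0.00671) for FGF19+MYC and 1.18 ± 0.24 (SE, adjusted p = 0.00232) for Aldafermin+MYC. These were 2.04-fold and 2.27-fold higher levels. Of 13 spindle and proliferation genes tested beside it, 12 were higher than liver in each tumor group, with list medians from 5.72 to 6.16. Against sgTrp53+MYC, 1 of the 13 passed in each comparison and was lower: Kif2a, the partner of Psrc1 (-0.43 and -0.43, adjusted p = 0.0477 and 0.0427), calls that held in 7 and 9 of 20 alternatives.

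**Figure D3:**
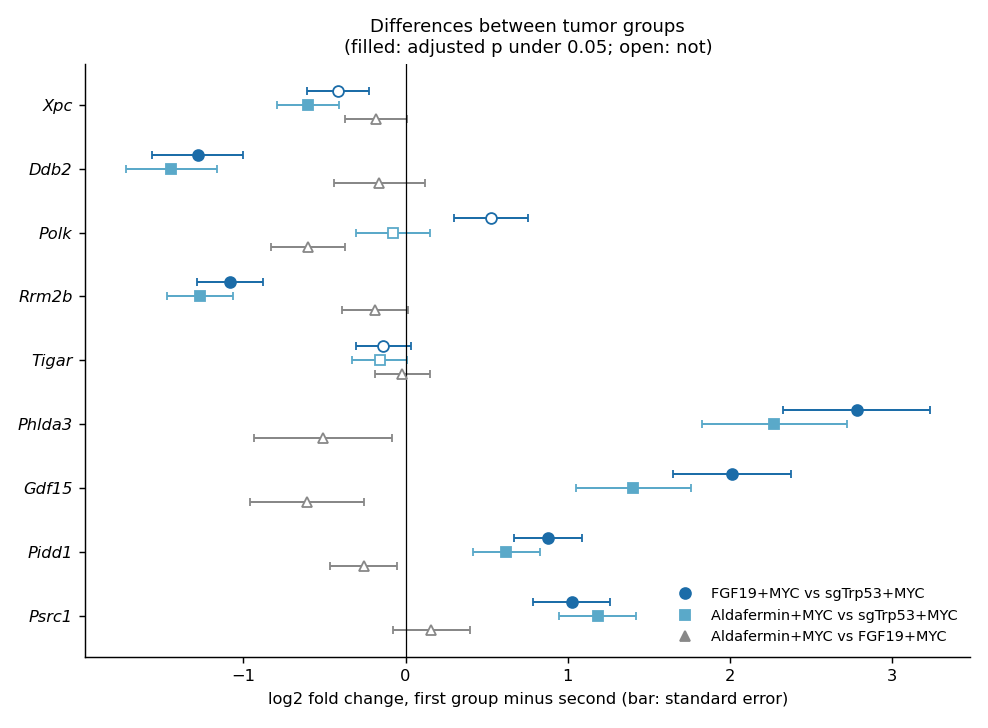
Log2 fold change (x axis, first group minus second, bars give the standard error) of the 9 genes (y axis) in the 3 comparisons between tumor groups, with filled symbols for an adjusted p under 0.05. Phlda3, Gdf15, Pidd1 and Psrc1 lie to the right and Ddb2 and Rrm2b to the left of 0 against sgTrp53+MYC, and every symbol of Aldafermin+MYC against FGF19+MYC is open.

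Between Aldafermin+MYC and FGF19+MYC tumors, none of the 9 genes passed edgeR's quasi-likelihood test, and neither did any other gene (0% of 14333, with 1048 at an unadjusted p under 0.05, and 96 called by DESeq2). The log2 fold changes of the 9 genes ran from -0.61 for Gdf15 to 0.16 for Psrc1, with a median of -0.19 beside 0.02 over all genes. For Phlda3 the 95% interval was -1.41 to 0.39, for Gdf15 -1.35 to 0.14, for Ddb2 -0.76 to 0.43, for Rrm2b -0.62 to 0.24 and for Pidd1 -0.695 to 0.18, so differences of over 1 log2 unit are not excluded for the first 2, nor for Polk. The spread within a group was wider in Aldafermin+MYC than in FGF19+MYC for 8 of the 9 genes, all but Ddb2 (SD of 23.6% and 33.5% of the mean). The SD was 70.7% of the mean for Phlda3, 55.5% for Gdf15 and 24.9% for Pidd1, against 25%, 27.4% and 4.89% in FGF19+MYC. The share of all tested genes with a wider spread was not computed, so this is not shown to be particular to the 9 genes. Outside them, the spread was also wider for Trp53 (23.5% and 12.8%) and Cdkn1a (37.2% and 17%), but not for Mdm2 (18.5% and 20.1%). Replicate 3 of Aldafermin+MYC was the highest of its group for Phlda3, Gdf15, Pidd1, Polk and Psrc1.

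Against liver, 6 of the 9 genes were higher and 2 lower in FGF19+MYC, 5 higher and 2 lower in Aldafermin+MYC, and 4 higher (Rrm2b, Tigar, Pidd1 and Psrc1) and 1 lower (Xpc) in sgTrp53+MYC, beside 69.7% of all tested genes called in FGF19+MYC (36.9% higher and 32.9% lower), 70.3% in Aldafermin+MYC (38.4% and 31.9%) and 69.9% in sgTrp53+MYC (36.9% and 33%). A share near that background is not a result about the 9 genes or about the gene lists counted against liver. The groups did not overlap for 8, 5 and 3 of them, beside 62.5%, 58.8% and 56.2% of all genes. These 3 comparisons share the 5 livers, and they rest on the scaling. With library totals in place of TMM factors the median log2 fold change of all genes moved from 0.06, 0.13 and 0.07 to 0.91, 0.97 and 0.95. The share of calls that were higher moved from 52.9%, 54.6% and 52.8% to 77.3%, 78.2% and 77.9%. Relative to that shift, Xpc and Ddb2 stayed below the median of all genes in FGF19+MYC and Aldafermin+MYC tumors, although Ddb2 in FGF19+MYC, at 0.0033, and Xpc in sgTrp53+MYC, at 0.33, no longer lay below 0.

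Levels can be set side by side between genes only per length, here as CPM per kilobase of all annotated exons (mean ± SD, n = 5). These lengths join the exons of all GENCODE transcripts of a gene, whereas reads were counted on RefSeq genes. The order of genes therefore depends in part on the annotation. In FGF19+MYC tumors the order was Gdf15 (16.1 ± 4.404), Psrc1 (14.3 ± 2.13), Phlda3 (6.55 ± 1.64), Pidd1 (4.74 ± 0.232), Tigar (3.03 ± 0.275), Xpc (2.41 ± 0.165), Polk (1.43 ± 0.265), Ddb2 (0.741 ± 0.248) and Rrm2b (0.546 ± 0.0715). The SDs of Gdf15 and Psrc1, of Phlda3 and Pidd1, and of Ddb2 and Rrm2b overlapped. In livers the order began with Xpc (4.81 ± 0.567), Gdf15 (4.12 ± 2.39) and Tigar (2.03 ± 0.378), of which Gdf15 overlapped both others, and ended with Psrc1 (0.0346 ± 0.0267). In sgTrp53+MYC tumors Psrc1 led (7.01 ± 1.83) and Phlda3 (0.95001 ± 0.5195), Polk (0.995 ± 0.292) and Rrm2b (1.16 ± 0.236) were the 3 lowest, with overlapping SDs. The SD of the next gene, Ddb2 (1.8 ± 0.703), overlapped those of all 3.

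Over the 20 libraries, which share groups, depth and table, the 36 pairs of these genes had a Pearson r of log2 CPM from -0.77 to 0.93, highest for Pidd1 with Psrc1 (0.93) and for Phlda3 with Gdf15 (0.81). With group means removed the pairs ran from -0.68 to 0.66 with a median of -0.08, and 19 of the 36 were below 0. Pidd1 with Psrc1 then had 0.29 and Phlda3 with Gdf15 had 0.17. Bax and Zmat3, both on the list of other p53 targets, were among the 3 genes most like Phlda3 over the 20 libraries (r = 0.89 for each), behind Tmem43 (0.90). Within groups Bax, Zmat3 and Tmem43 had 0.64, 0.44 and 0.60. For Psrc1 the 3 were Bex2, Phgdh and Kifc1 (0.99 for each), of which Kifc1, a spindle motor, kept 0.92 within groups, and for Xpc they began with Tns1 (0.97, and 0.92 within groups). The genes most like Rrm2b, Tigar, Ddb2, Gdf15 and Polk were Ube2q2 (0.91), Hccs (0.88), Gm11992 (0.89), Ak1 (0.86) and Cdr2l (0.80).

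The other p53 targets give the frame for these 9. Of 26 on the fixed list, 16 were higher and 2 lower in FGF19+MYC, and 14 higher and 2 lower in Aldafermin+MYC, against sgTrp53+MYC, with list medians of 1.22 and 0.91. Over all tested genes, 7.97% were higher and 7.78% lower in FGF19+MYC, and 10.2% and 7.53% in Aldafermin+MYC. The cell cycle inhibitor Cdkn1a had 2.62 ± 0.48 (SE, adjusted p = 0.00127) in FGF19+MYC and 1.97 ± 0.47 (SE, adjusted p = 0.0068) in Aldafermin+MYC. Mdm2, the ubiquitin ligase that degrades p53, had 1.28 ± 0.15 (SE, adjusted p = 3.51e-05) and 0.43 ± 0.14 (SE, adjusted p = 0.046), the latter held in 8 of 20 alternatives. The receptor gene Eda2r, at a mean of 0.37 CPM in sgTrp53+MYC tumors, had 6.11 and 4.88 (adjusted p = 2.61e-05 and 8.39e-05). The muscle creatine kinase gene Ckm went the other way, at a mean of 271 CPM in sgTrp53+MYC tumors and 0.017 and 0.16 CPM in FGF19+MYC and Aldafermin+MYC tumors. Sesn1 was the other gene that was lower (-0.52 and -0.43, adjusted p = 0.0159 and 0.038), and its call in Aldafermin+MYC held in 9 of 20 alternatives. With 1 library left out, the count of lower genes was 1 to 2 in FGF19+MYC and 0 to 2 in Aldafermin+MYC, and Ckm was not tested without any 1 sgTrp53+MYC library, since it reached 1 CPM only in those 5. Against liver, 15 of the 26 were higher and 7 lower in FGF19+MYC, 13 and 6 in Aldafermin+MYC and 10 and 10 in sgTrp53+MYC tumors. Over all tested genes these shares were 36.9% and 32.9%, 38.4% and 31.9%, and 36.9% and 33%, so the counts in sgTrp53+MYC tumors lie near the background.

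Exon GC content and length moved with the comparisons across tables. Over 13794 of the 14333 tested genes (96.2%), the log2 fold change had a Spearman correlation with exon GC content of 0.29 in FGF19+MYC and 0.33 in Aldafermin+MYC against sgTrp53+MYC, and of 0.09 between Aldafermin+MYC and FGF19+MYC, given as a description since genes are not independent. Of the 4 genes that were higher against sgTrp53+MYC, Gdf15 (59.7% GC), Pidd1 (57.2%), Phlda3 (56.5%) and Psrc1 (52.2%) all lie above the median of 48.9%, and Rrm2b (40.2%) and Ddb2 (48.6%) lie below it. Xpc (52.3%), called lower in Aldafermin+MYC, lies above it. With offsets for both, chosen after seeing the data, the log2 fold change of Rrm2b was -0.79 and -0.91 (adjusted p = 0.00902 and 0.00339), that of Phlda3 2.58 and 1.95 and that of Gdf15 1.73 and 1.04. That of Psrc1 was 0.93 and 1.03 and that of Ddb2 -1.24 and -1.42. Each was still called in FGF19+MYC and Aldafermin+MYC against sgTrp53+MYC. Pidd1 in Aldafermin+MYC was no longer called (0.42, adjusted p = 0.113), and Xpc in FGF19+MYC now was (-0.48, adjusted p = 0.0327).

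**Figure D4:**
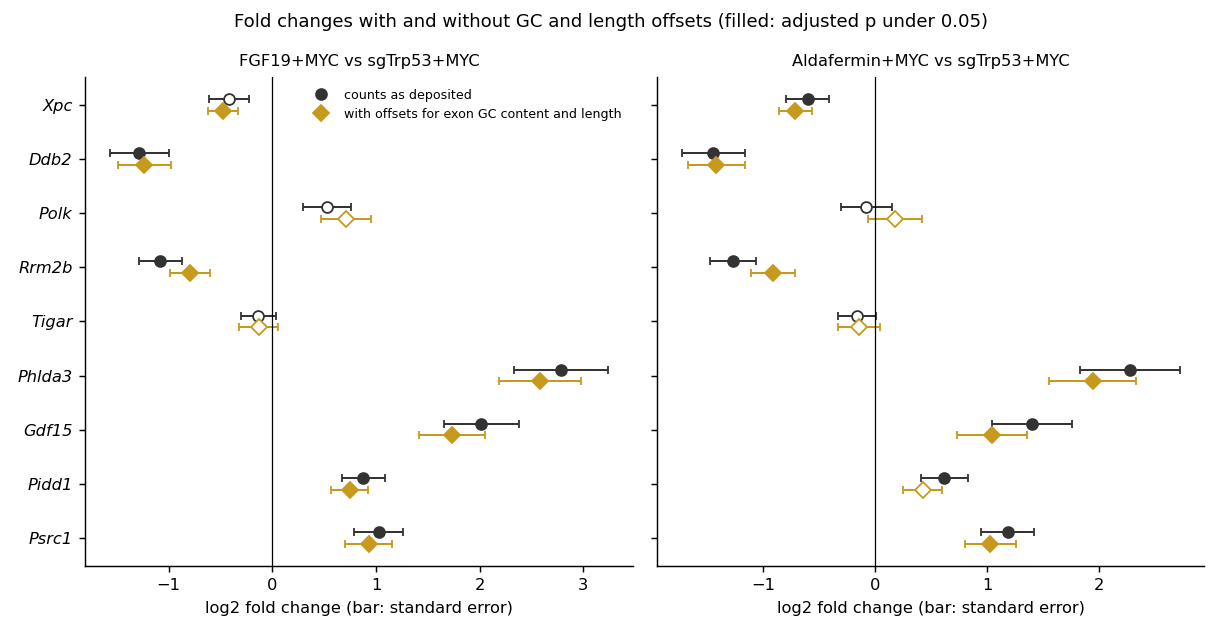
Log2 fold change (x axis, bars give the standard error) of the 9 genes (y axis) in FGF19+MYC (left) and Aldafermin+MYC tumors (right) against sgTrp53+MYC tumors, without (dark circles) and with (yellow diamonds) offsets for exon GC content and length, filled for an adjusted p under 0.05. Offsets pull Rrm2b, Phlda3 and Gdf15 towards 0 without ending their calls, and Pidd1 in Aldafermin+MYC loses its call.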

How the data were processed

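Per the study's methods and the labels, the authors extracted total RNA, made stranded mRNA libraries, aligned paired reads to the mouse genome with HISAT2 (build mm39 in the submitters' processing notes) and used htseq-count with RefSeq genes to count reads. The deposited values are raw counts, in 2 tables of 15 and 5 libraries; options and strand setting are not given in the sources used here. Lines that name no gene (5, with 33.7 to 56.2% of reads) were left out. The tables were joined by symbol. Genes that reached 1 CPM in 5 or more libraries entered 1 model of the 4 groups with edgeR 4.0.16 (TMM factors, quasi-likelihood test, R 4.3.3), with Benjamini-Hochberg adjustment over all tested genes. The Rrm2b to Rrm2 ratio used log2 CPM with a prior count of 2 and exact permutation tests. Exons and start sites came from GENCODE on GRCm39. Alternatives were DESeq2 1.42.0, a likelihood ratio test, other size factors, other filters, 2-group models, a replicate block, leaving out each library, and GC and length offsets. The 9 genes, the lists and the tests were chosen with earlier results of these data known. Genes named besides the 9 are Trp53, Mdm2, Cdkn1a, Rrm1 and Rrm2, up to 3 of each list by adjusted p in FGF19+MYC against sgTrp53+MYC, and up to 3 most like each of the 9. Ripk1 and Sesn1 were named after their values were seen. Genes that this rule takes but the text does not name are not reported here. No pair of libraries agreed within sampling noise. Counts limit precision at low levels. Intervals of log2 fold changes come from the fit and include the spread between libraries, and those of the Psrc1 read sums cover counting error only.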

Additional observations from a re-analysis of the deposited data

Results flagged for a closer look

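Of 60 sets of 5 libraries examined for a single value far from the rest (14 genes and the Rrm2b to Rrm2 ratio in 4 groups), 3 held one by Dixon's ratio, and chance alone flags about 1 in 20. Rrm2b stood at 15.4 CPM in replicate 1 of sgTrp53+MYC, against 11.2 in the next library. Tigar stood at 23.2 CPM in replicate 2 of FGF19+MYC, and Gdf15 at 47.4 CPM in replicate 3 of Aldafermin+MYC. Without those libraries, no call of Rrm2b, Tigar or Gdf15 against sgTrp53+MYC or liver was lost.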

How the results depend on the processing

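Of 534 values of the 9 genes under alternatives other than leaving out a library, 503 kept their direction and side of the threshold. Of the rest, 12 lost and 7 gained a call with the direction kept, and 12 changed sign, some of these with a change of call. Of 540 with 1 library left out, 513 kept both, 11 lost and 3 gained a call, and 13 changed sign. With library totals, Ddb2 in FGF19+MYC against liver was 0.0033 and Xpc in sgTrp53+MYC against liver 0.33, both no longer called. Against liver, Rrm2b was 0.83 in FGF19+MYC and 0.63 in Aldafermin+MYC, and Gdf15 was 0.86 in sgTrp53+MYC. These were newly called (adjusted p = 0.000529, 0.00456 and 0.0417). In sgTrp53+MYC against liver, 8 of the 9 genes were called in place of 5. Without a filter, Rrm2b in FGF19+MYC against liver was 0.17, Gdf15 in sgTrp53+MYC against liver 0.24 and Rrm1 in Aldafermin+MYC against sgTrp53+MYC -0.048. With 2-group models Gdf15 was 0.084 in sgTrp53+MYC against liver. With GC and length offsets, Polk was 0.18 in Aldafermin+MYC against sgTrp53+MYC and -0.091 in sgTrp53+MYC against liver, Rrm2b 0.057 in FGF19+MYC and Gdf15 0.17 in sgTrp53+MYC against liver, and Rrm1 0.072 in FGF19+MYC against sgTrp53+MYC, and the Rrm2b to Rrm2 difference between Aldafermin+MYC and FGF19+MYC was -0.34 (exact permutation adjusted p = 0.0556). Leaving out 1 library gave -0.18 to 0.039 for Tigar between Aldafermin+MYC and FGF19+MYC, -0.21 to 0.092 for Polk and -0.019 to 0.13 for Rrm1 in Aldafermin+MYC against sgTrp53+MYC, and, against liver, -0.036 to 0.299 for Polk in Aldafermin+MYC, -0.078 to 0.0897 for Rrm2b in FGF19+MYC and -0.24 to 0.31 for Gdf15 in sgTrp53+MYC. Over all genes, the 0 calls between Aldafermin+MYC and FGF19+MYC became 96 with DESeq2, 59 with the likelihood ratio test, 2 with relative log expression factors, 4 with GC and length offsets, and 0 to 29 with 1 library left out (29 without Aldafermin+MYC replicate 4). With 2-group models 1342 and 1076 genes were called for FGF19+MYC and Aldafermin+MYC against sgTrp53+MYC, in place of 2258 and 2534; for the latter, 57.4% of calls were higher, against 47% with DESeq2. Replicate numbers did not pair the samples: the correlation of same-numbered libraries ran from -0.33 to 0.33 and 0 of 20 matched best with their own number. With a replicate block, Pidd1 in Aldafermin+MYC against sgTrp53+MYC lost its call (0.61), and the Rrm2b to Rrm2 differences, -1.22, -1.65, -0.44, -3.90, -4.34 and -2.68 in the order of the comparisons above, had an exact sign-flip adjusted p = 0.0625, the smallest that 5 pairs allow. Of the list genes named, calls that held in under 15 of 20 alternatives were Dguok (11) and Pik3r1 (11) in FGF19+MYC and Usp1 (12) and Ppp1r15a (13) in Aldafermin+MYC against sgTrp53+MYC, besides Kif2a, Mdm2 and Sesn1. The cause of these changes was not tested.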
